A study of Mus musculus with 6 samples.

Results

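Txnip and the arrestin-domain-containing genes Arrdc1, Arrdc2, Arrdc3 and Arrdc4 are the alpha-arrestin genes described here, 5 of the 19844 genes in the deposited expression table. They were selected by gene symbol, with the FPKM values of the same knockout and wild-type libraries already known, so their genotype differences are given as descriptions with no test. A further alpha-arrestin gene, Arrdc5, was not analysed here. Distal colon was taken from C57BL6 mice on day 17 of treatment with azoxymethane (AOM), a carcinogen, and dextran sulfate sodium (DSS), which injures the colon lining. There were 3 samples of ChREBP knockout mice (KO) and 3 of wild-type mice (WT), and both groups received AOM/DSS. The labels do not give the deleted part of the gene, the age of the mice, or whether the deletion was limited to a cell type. The series links ChREBP, the product of Mlxipl and a transcription factor that responds to glucose, to colorectal carcinogenesis by way of Wnt/beta-catenin signalling. Expression is in FPKM, fragments scaled to transcript length and to library size, which allows levels to be compared between genes per length.

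Alpha-arrestins are adaptor proteins with the arrestin fold. Most carry PPxY motifs in their tails, which recruit HECT ubiquitin ligases of the NEDD4 family to membrane proteins and so promote the uptake and sorting of receptors and transporters. TXNIP also binds thioredoxin and inhibits it, and it lowers glucose uptake by drawing the glucose transporter GLUT1 from the cell surface. Glucose induces Txnip and Arrdc4 through MondoA and ChREBP, which bind E-box pairs together with their partner MLX, and this makes both genes common readouts of those factors.

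The promoters of Txnip and Arrdc4 are shown because E-box-like elements there are the known route from ChREBP and MondoA to these genes. Both are RefSeq sequences of the GRCm38.p6 build, each 300 bases long and running 5′ to 3′ along the gene from 250 bases before the start site to 50 bases after it. The expression values were made on another build, mm39, and no coordinates were converted. Capitals mark matches to CACGTG or to a pair of CACGNG boxes 5 bases apart (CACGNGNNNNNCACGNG), each searched on both strands. The Txnip window lies at chr3:96557707-96558006 on the plus strand and the Arrdc4 window at chr7:68749189-68749488 on the minus strand.
Txnip: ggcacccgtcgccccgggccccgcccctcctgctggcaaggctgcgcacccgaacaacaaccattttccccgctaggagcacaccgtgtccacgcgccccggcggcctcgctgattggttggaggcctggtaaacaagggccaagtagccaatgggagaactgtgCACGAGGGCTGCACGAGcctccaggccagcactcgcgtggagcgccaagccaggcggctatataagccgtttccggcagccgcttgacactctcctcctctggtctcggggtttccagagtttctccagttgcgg
Arrdc4: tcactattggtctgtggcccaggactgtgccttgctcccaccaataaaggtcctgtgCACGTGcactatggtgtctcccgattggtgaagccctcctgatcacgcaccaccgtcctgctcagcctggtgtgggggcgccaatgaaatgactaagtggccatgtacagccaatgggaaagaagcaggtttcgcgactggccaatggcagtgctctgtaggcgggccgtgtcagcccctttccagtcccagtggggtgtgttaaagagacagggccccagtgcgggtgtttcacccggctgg

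The Txnip promoter held the pair of boxes as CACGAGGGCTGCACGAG, from base -85 to base -69 relative to the start site. Only 16 of 32851 RefSeq promoter windows of this length (0.05%) held such a pair, and they belonged to 15 genes. Of these genes 9, with Txnip among them, were expressed highly enough to be tested, and their log2 differences between genotypes lay between -0.18 and 0.04. Arrdc4 held CACGTG from base -193 to base -188, a motif found in 7.15% of windows. The windows of Arrdc1, Arrdc2 and Arrdc3, the last with 3 annotated start sites, matched neither motif in these letters. Txnip also held GTAAACA, the core recognised by FOXO factors, from base -121 to base -115, as did 3.65% of windows, and no other member matched it. CCAAT, the NF-Y box, was matched in either orientation by 5 of the 7 member windows and by 37.41% of all windows. By gene, 4 of the 5 members and 41.06% of all genes matched. The matching Arrdc3 windows overlap and hold the same site. The motifs were picked with these sequences in view, and a match is a description of the letters.

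Both groups were sequenced to a like depth, and the libraries had other features that touch the comparison. The estimated depth, from what a single read was worth in the shortest genes, was 17700000 to 18425000 reads. Mlxipl was at 3.40, 5.66 and 5.04 FPKM in the 3 KO libraries, against 5.84, 7.49 and 7.27 FPKM in the 3 WT libraries. The targeted transcript was thus lower in each KO library than in any WT library, but present in all. KO values lay wholly below WT values for 4.14% of all genes tested. The log2(FPKM + 1) difference of Mlxipl, KO minus WT, was -0.48 (SE 0.18, limma adjusted p 0.9995). Its values do not show how much ChREBP protein was left. All samples are labelled female, yet the Y-linked gene Ddx3y lay between 9.51 and 12.11 FPKM and the female-specific RNA Xist between 0.02 and 0.04 FPKM in all 6 libraries. The Y-linked genes Uty, Kdm5d and Eif2s3y were at 5.67 FPKM or more in each library. The RNA of all 6 libraries thus reads as male, against the label. Clock genes differed between libraries: a score over Dbp, Tef, Nr1d1, Nr1d2, Per3 and Ciart, the mean of their log2(FPKM + 1) levels, was 3.34, 2.56 and 3.61 in KO replicates 1 to 3, against 5.07, 4.85 and 2.32 in WT replicates 1 to 3. Colon epithelium markers summed to between 6170.32 and 6817.06 FPKM in KO and between 6054.49 and 6442.87 FPKM in WT, with all 10 expressed at a mean of 1 FPKM or more. None of the 13 marker lists of epithelial, stromal, immune, neural, squamous and fat cells had summed levels that separated the genotypes. A sum leans on its most abundant markers, as on Ly6g for neutrophils, and some sums varied widely between libraries. Smooth muscle markers summed to between 2794.17 and 4242.16 FPKM in KO and between 2615.97 and 3576.4 FPKM in WT. B and plasma cell markers summed to between 155.23 and 426.28 FPKM in KO and between 377.15 and 388.36 FPKM in WT. A like cell composition is thus not shown. In whole tissue, fewer cells of a type and less RNA per cell cannot be told apart.

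Txnip was by far the most abundant member in both genotypes, and its level was similar in KO and WT colon. It read 250.80, 328.49 and 387.49 FPKM in KO replicates 1 to 3, against 247.61, 417.06 and 362.65 FPKM in WT replicates 1 to 3. The groups overlapped fully: the lowest and the highest of the 6 values were both WT, and replicate 1 was the lowest library of each genotype. The mean was 322 ± 68.6 FPKM in KO and 342 ± 86.5 FPKM in WT (SD, n = 3 each), and the KO mean was 94.1% of the WT mean. On the log2(FPKM + 1) scale the difference, KO minus WT, was -0.08 (SE 0.22), and the sign changed when KO replicate 1 or WT replicate 2 was left out (0.09 and 0.08). Its interval of 95% ran from -0.59 to 0.44, so with 3 samples per group a difference anywhere in this range was not excluded.

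A non-coding gene, Gm15441, overlaps Txnip on the opposite strand in the annotation. The spans of the genes were compared, not their exons. Since no source used here says that strand was kept in counting, reads from any stretch that both transcripts share cannot be told apart. Gm15441 was listed at 0.96 to 1.71 FPKM, between 0.29% and 0.68% of the Txnip level in the same library.

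Arrdc4, the member closest to Txnip in its response to glucose, also showed similar levels in both genotypes. It read 29.55, 38.21 and 39.36 FPKM in KO, against 25.28, 36.87 and 40.80 FPKM in WT. The WT values spanned the KO values, and replicate 1 was again the lowest library of each genotype. The mean was 35.7 ± 5.36 FPKM in KO and 34.3 ± 8.07 FPKM in WT (SD, n = 3 each), a log2 difference of 0.07 (SE 0.19, interval -0.36 to 0.51). This difference was -0.002 without KO replicate 3, -0.13 without WT replicate 1, and -0.07 with the clock score as a term in the fit. Neither glucose-responsive member therefore had a direction that held over the libraries.

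Arrdc3, an adaptor that brings NEDD4-family ligases to integrin beta-4 and that affects body fat in mice, had higher values in every KO library than in any WT library. It read 22.06, 23.67 and 28.74 FPKM in KO, against 16.57, 18.55 and 12.56 FPKM in WT. The groups were 3.51 FPKM apart at their nearest, between KO replicate 1 and WT replicate 2, and the lowest library was WT replicate 3. The mean was 24.8 ± 3.49 FPKM in KO and 15.9 ± 3.05 FPKM in WT (SD, n = 3 each), a ratio of 1.56 and a log2 difference of 0.62 (SE 0.16).

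Arrdc2, a less studied relative that glucocorticoids are known to induce in muscle, was the least abundant member and was placed like Arrdc3. It read 6.23, 7.85 and 7.37 FPKM in KO, against 4.39, 4.76 and 3.62 FPKM in WT. The gap between the groups was 1.47 FPKM, again between KO replicate 1 and WT replicate 2, and WT replicate 3 was again the lowest. The mean was 7.15 ± 0.832 FPKM in KO and 4.26 ± 0.582 FPKM in WT (SD, n = 3 each), a ratio of 1.68 and a log2 difference of 0.63 (SE 0.13).

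Arrdc1, which sits at the plasma membrane and recruits TSG101 to bud off microvesicles, was higher on average in KO, with groups that touched. It read 41.23, 57.22 and 47.58 FPKM in KO, against 38.46, 42.13 and 40.09 FPKM in WT. KO replicate 1 lay below WT replicate 2 by 0.90 FPKM, and KO replicate 2 stood above the other libraries. The mean was 48.7 ± 8.05 FPKM in KO and 40.2 ± 1.84 FPKM in WT (SD, n = 3 each), a log2 difference of 0.26 (SE 0.13). Without KO replicate 2 the difference was 0.14 and without KO replicate 1 it was 0.37.

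**Figure D1:**
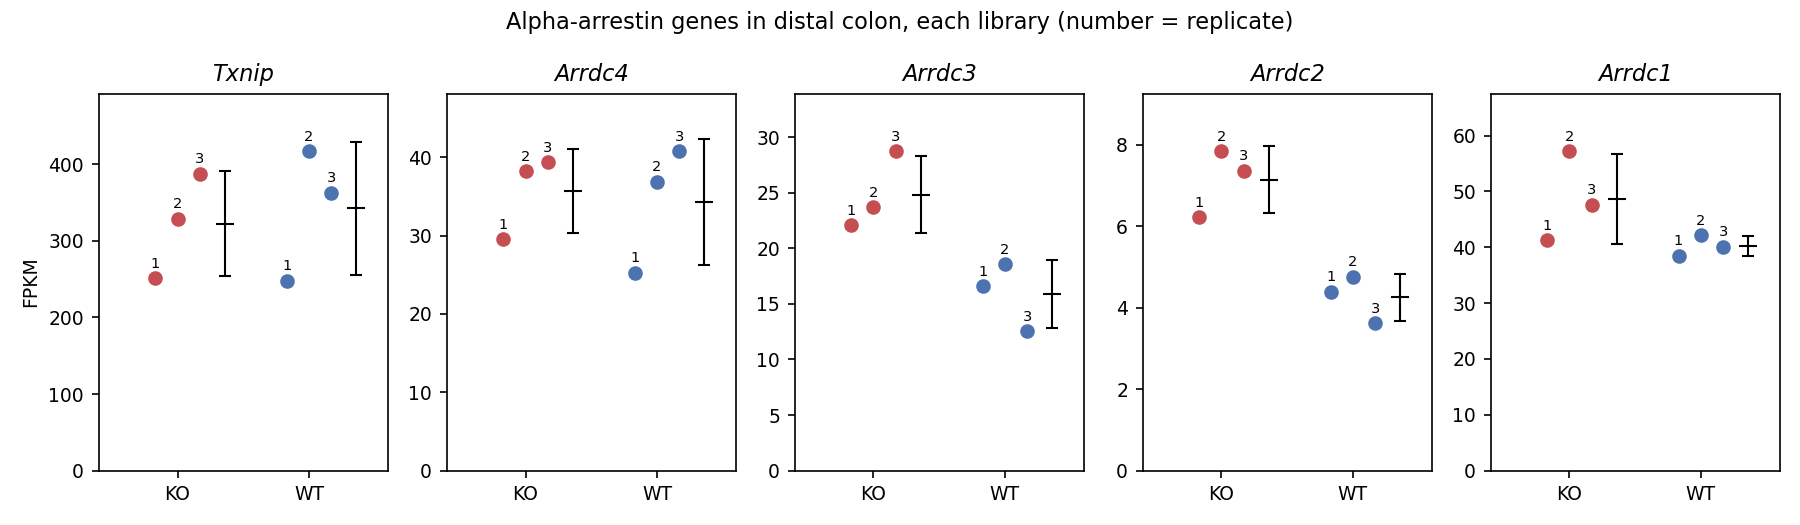
FPKM of the 5 alpha-arrestin genes in each library, with KO left of WT in every panel; points are libraries numbered by replicate, and bars beside them are the mean ± SD of 3 samples. Arrdc3 and Arrdc2 values in KO lie wholly above those in WT, whereas Txnip and Arrdc4 overlap and have replicate 1 lowest in both genotypes.

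Set against all genes, 2 of the 5 members had KO values wholly above WT values, which was so for 4.53% of the 13247 genes tested, and 0 had KO values wholly below, which was so for 4.14%, or 8.67% for both directions together. The members were chosen with these values known, so the counts describe them and nothing is read from them. Of the 5 log2 differences 4 were above 0, with a median of 0.26, and over all genes tested 52.7% were above 0, with a median of 0.01.

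Since the groups do not overlap for Arrdc3 and Arrdc2, leaving out a library can change the size of their differences but not the sign. Leaving out each library gave 0.47 to 0.73 for Arrdc3 and 0.54 to 0.72 for Arrdc2, with the lowest value of each reached without WT replicate 3. With the clock score in the fit the differences were 0.77 (SE 0.13) for Arrdc3 and 0.70 (SE 0.14) for Arrdc2. WT replicate 3, the WT library with the low clock score, was also the lowest library for both genes. The difference of Arrdc1 with the clock score was 0.22 (SE 0.14) and that of Txnip was -0.14 (SE 0.26).

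**Figure D2:**
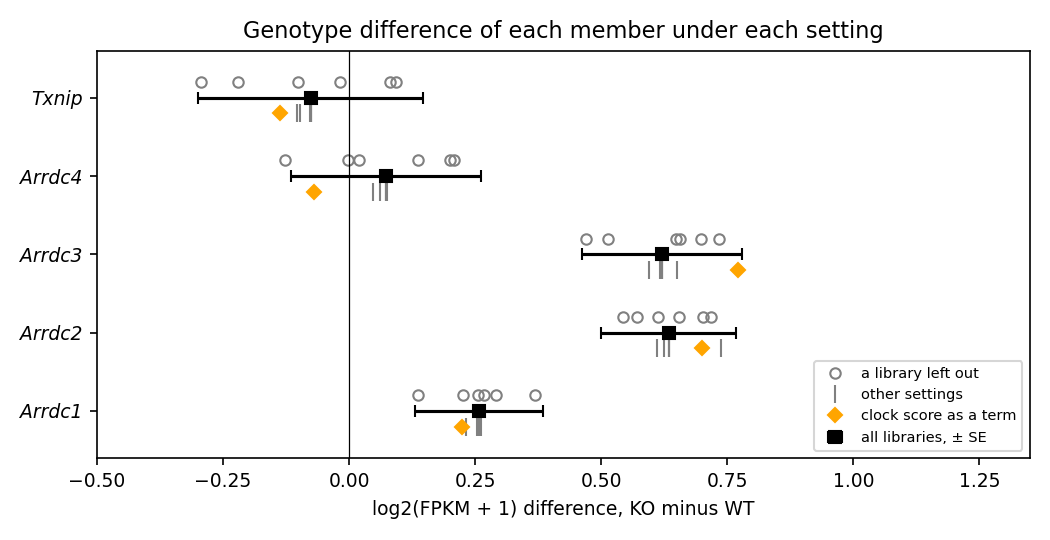
Difference in log2(FPKM + 1), KO minus WT, of each member. Squares with bars give the value over all 6 libraries ± SE, circles the values with a library left out, orange diamonds the value with the clock score in the fit and grey ticks the other settings; values run from 0.47 to 0.77 for Arrdc3 and from 0.54 to 0.74 for Arrdc2, whose groups do not overlap, and those of Txnip and Arrdc4 lie on both sides of 0.

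The order of the members by level was the same at the top and bottom in both genotypes. In KO colon the order of means was Txnip, Arrdc1, Arrdc4, Arrdc3 and Arrdc2, and the ranges of neighbours did not overlap, with Arrdc4 (29.55 to 39.36 FPKM) just above Arrdc3 (22.06 to 28.74 FPKM). In WT colon the order of means was the same, but Arrdc1 (38.46 to 42.13 FPKM) and Arrdc4 (25.28 to 40.80 FPKM) overlapped, and Arrdc4 stood farther from Arrdc3 (12.56 to 18.55 FPKM). The summed level of the family was 439 ± 81.6 FPKM in KO and 437 ± 95.6 FPKM in WT (SD, n = 3 each), set mainly by Txnip. Txnip made up 71.7%, 72.1% and 75.9% of this sum in KO replicates 1 to 3, against 74.5%, 80.3% and 78.9% in WT replicates 1 to 3. Arrdc3 made up 5.71% ± 0.558 of the sum in KO and 3.76% ± 1.14 in WT, and Arrdc2 made up 1.65% ± 0.180 in KO and 1.01% ± 0.278 in WT. The Txnip to Arrdc3 ratio was 11.4, 13.9 and 13.5 in KO, against 14.9, 22.5 and 28.9 in WT, whereas the Arrdc3 to Arrdc2 ratio was 3.49 ± 0.445 in KO and 3.71 ± 0.220 in WT (SD, n = 3 each).

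Members also differed in how much they varied between samples of a genotype, a measure that played no part in choosing them. The within-genotype SD of log2(FPKM + 1), pooled over both groups, was 0.35 for Txnip, larger than that of 93.8% of the 9237 tested genes with a mean of at least 5 FPKM. It was 0.29 for Arrdc4, larger than for 88.9% of these genes, and 0.23 for Arrdc3, larger than for 79.7%. For Arrdc1 it was 0.17 and for Arrdc2 it was 0.16, larger than for 59.5% and 53.3% of the genes, and so near the middle of the range. Without WT replicate 1 the SD of Arrdc4 was 0.19, and without KO replicate 2 that of Arrdc1 was 0.10.

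Txnip and Arrdc4 were low in the same libraries, and without those libraries no positive relation was seen. Over the 6 libraries Pearson's r on the log2(FPKM + 1) scale was 0.87 (exact permutation p = 0.0417, two-sided, and 0.139 after Benjamini-Hochberg adjustment over the 10 pairs of members), and Spearman's rho was 0.60 (exact permutation p = 0.242, adjusted 0.604). The farthest libraries from the median of Txnip were KO replicate 1 and WT replicate 1, and without them r was -0.35 over the remaining 4. Leaving out the extremes narrows the range of Txnip, which by itself weakens r. With the genotype means removed r was 0.91 over the 6 libraries, given as a description. That value also holds replicate 1, the lowest library of each genotype for both genes. The Txnip to Arrdc4 ratio was 8.49, 8.60 and 9.84 in KO, against 9.79, 11.3 and 8.89 in WT.

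Arrdc3 and Arrdc2 fell into separate clusters by genotype, so the correlation over all libraries holds the step between genotypes and is not reported. With the genotype means removed r was 0.79 over the 6 libraries, given as a description. In WT both genes had the order replicate 2, replicate 1, replicate 3 from high to low. In KO replicate 3 was highest for Arrdc3 and replicate 2 was highest for Arrdc2. For the other 9 pairs of members the smallest Benjamini-Hochberg adjusted exact permutation p of Pearson's r was 0.139.

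**Figure D3:**
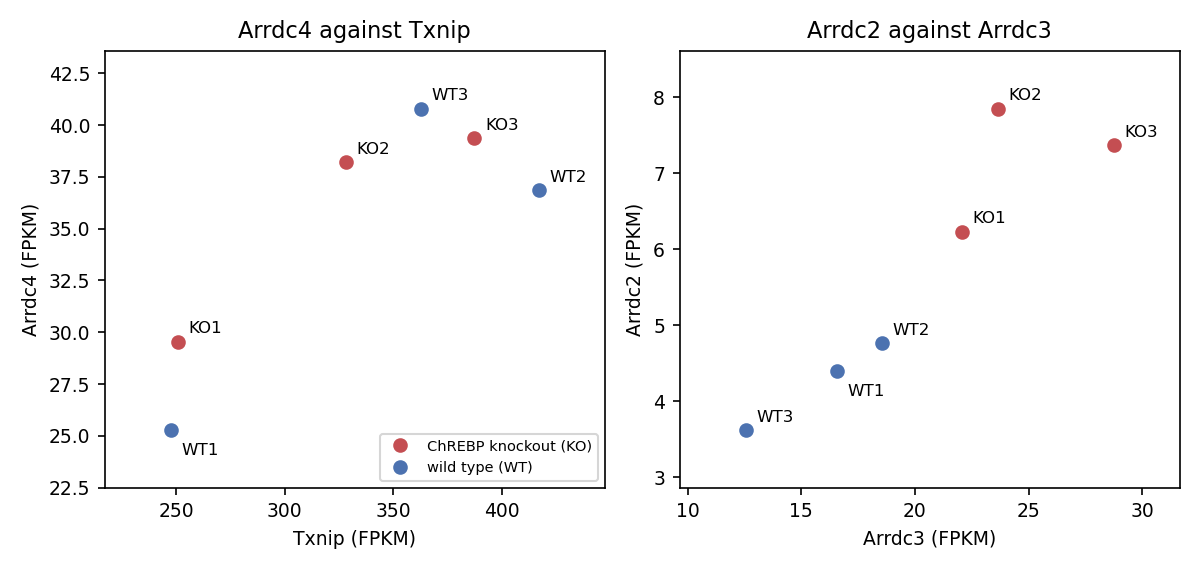
FPKM of Arrdc4 against Txnip and of Arrdc2 against Arrdc3, with a point for each library (red for KO, blue for WT). In the first panel KO1 and WT1 lie apart from the other libraries, over which r was -0.35; in the second the KO libraries lie above and to the right of the WT libraries. Axes do not start at 0.

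The genes whose levels followed each member most closely were found among tested genes with a mean of at least 5 FPKM, by Pearson's r of log2(FPKM + 1) over the 6 libraries. This is a ranking of 9236 genes over few libraries, in which high values of r are common, so it is given as a description. For Txnip the closest were Plekha1 (r = 0.99), Cryab, a small heat shock protein gene (0.97), and Pip5k1c (0.96), and 27 genes reached an r of 0.9. For Arrdc4 they were Arglu1 (0.998), Mtus1 (0.99) and Casc3 (0.97), and 57 genes reached 0.9. Arrdc4 held place 44 in the ranking for Txnip, and Txnip held place 96 in that for Arrdc4.

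For the other members r contains the step between genotypes. Arrdc3 was followed most closely by Ocel1 (r = 0.99), Lyrm2 (0.99) and Naglu, a lysosomal enzyme gene (0.98). Ocel1 read 6.81, 7.33 and 9.09 FPKM in KO, against 5.55, 6.23 and 4.49 FPKM in WT. Arrdc2 was followed by Cntrl (0.99), Fdx1l (0.99) and Wdr73 (0.99), and Arrdc1 by Aplf (0.995), Ulk3 (0.99) and Zbtb17 (0.99). Each of the 15 genes named here had a limma adjusted p of 0.9995 for genotype.

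The proteins that alpha-arrestins work with were examined as lists. Over all 10 lists 121 genes were tested, and limma called 0 of them at a Benjamini-Hochberg adjusted p under 0.05, against 0.0151% of all genes. At an unadjusted p under 0.05 there were 9 of the 121, against 3.4% of all genes. The values below are thus differences that did not pass the test, and the adjusted p was 0.9995 except where another is given.

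Among the other genes with an arrestin fold, 2 of 6 tested were higher and 4 lower in KO, with a median log2 difference of -0.07. The beta-arrestin genes, whose products switch off G-protein-coupled receptors, were at 18.3 ± 1.37 FPKM in KO and 17.3 ± 3.43 FPKM in WT for Arrb1, and at 10.3 ± 2.55 FPKM in KO and 10.99 ± 0.789 FPKM in WT for Arrb2 (SD, n = 3 each). Their log2 differences were 0.09 and -0.11, and that of Arrb1 changed sign under some settings. The visual arrestin gene Sag did not exceed 0.13 FPKM in any library.

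The HECT ligases, which bind PPxY motifs, and the adaptors of these ligases had 3 of 9 tested genes higher and 6 lower, with a median of -0.04. Itch, the ligase that marks TXNIP for degradation, was at 21.8 ± 2.26 FPKM in KO and 22.3 ± 0.336 FPKM in WT. Nedd4 was at 108 ± 13.9 FPKM in KO and 112 ± 3.94 FPKM in WT. The adaptor gene Ndfip2 had the smallest unadjusted p of the list, at 51.2 ± 5.19 FPKM in KO and 58.0 ± 3.97 FPKM in WT, a log2 difference of -0.18 (SE 0.11). The brain-enriched ligase genes Hecw1 and Hecw2 did not exceed 0.59 FPKM in any library and were not tested.

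The thioredoxin system, the redox partner of TXNIP, had 9 of 16 genes higher and 7 lower, with a median of 0.03. Txn1, the thioredoxin that TXNIP inhibits, was at 494 ± 78.0 FPKM in KO and 504 ± 35.9 FPKM in WT, above Txnip per length in every library. Txnrd1, the reductase of thioredoxin, was at 69.0 ± 15.3 FPKM in KO and 68.6 ± 4.25 FPKM in WT. Nxn, a thioredoxin-like gene, had the smallest p of the list, at 6.92 ± 1.19 FPKM in KO and 5.27 ± 0.419 FPKM in WT (log2 difference 0.33, SE 0.14). Prdx3, a mitochondrial peroxiredoxin, was at 54.0 ± 5.10 FPKM in KO and 61.8 ± 0.459 FPKM in WT.

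Cargo and binding partners had 7 genes higher and 7 lower of 14 tested, with a median of 0.005. Slc2a1, which encodes GLUT1, the transporter that TXNIP draws from the surface, read 78.40, 67.21 and 86.04 FPKM in KO, against 71.27, 63.72 and 66.76 FPKM in WT, with overlapping groups. Slc2a4, the insulin-responsive transporter gene, was at 10.8 ± 2.61 FPKM in KO and 8.28 ± 0.909 FPKM in WT. Itgb4, which encodes the integrin bound by ARRDC3, was at 50.4 ± 11.8 FPKM in KO and 47.3 ± 6.45 FPKM in WT. Among the partners of Arrdc1, Tsg101 was at 53.8 ± 1.43 FPKM in KO and 54.7 ± 3.40 FPKM in WT. Notch1 had the smallest unadjusted p of the list, at 5.32 ± 0.479 FPKM in KO and 6.87 ± 0.631 FPKM in WT (log2 difference -0.32, SE 0.12). Its KO values lay wholly below its WT values, as for 1 of the 14 genes of this list and 4.14% of all genes tested.

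Of the factors that act on Txnip, the Mondo factors and energy sensors had 4 of 12 genes higher and 8 lower, with a median of -0.05. Mlxip, which encodes MondoA, the closest relative of ChREBP, was at 26.8 ± 1.22 FPKM in KO and 29.6 ± 3.70 FPKM in WT, and their shared partner Mlx was at 61.9 ± 6.57 FPKM in KO and 65.7 ± 3.93 FPKM in WT. Mlxip was thus several times as abundant as Mlxipl per length in each library of both genotypes. The glucose-responsive targets of ChREBP, of which 7 of 15 tested were higher and 8 lower, had a median of -0.02, between the differences of Txnip and Arrdc4. Pklr, the pyruvate kinase gene of liver and a classic target of ChREBP, was at 34.3 ± 2.02 FPKM in KO and 32.5 ± 1.15 FPKM in WT.

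FOXO factors and their targets had 9 of 15 genes higher and 6 lower, with a median of 0.06. Pnrc1, a nuclear receptor coregulator, had values placed like those of Arrdc2 and Arrdc3, at 51.0 ± 7.66 FPKM in KO and 32.1 ± 3.57 FPKM in WT (log2 difference 0.65, SE 0.14). It had the smallest unadjusted p of the list, and 4.53% of all genes tested had KO values wholly above WT values. Foxo1 was at 11.0 ± 1.10 FPKM in KO and 12.3 ± 0.880 FPKM in WT, and Pik3ip1, a FOXO target, at 4.17 ± 1.22 FPKM in KO and 4.42 ± 0.969 FPKM in WT.

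Glucocorticoid-responsive genes had 6 of 14 genes higher and 8 lower, with a median of -0.11. Fkbp5 was at 18.6 ± 1.52 FPKM in KO and 20.8 ± 7.40 FPKM in WT, and Tsc22d3, which encodes GILZ, at 34.7 ± 6.12 FPKM in KO and 40.1 ± 7.17 FPKM in WT. The smallest unadjusted p values of the list were those of the clock gene Per1, at 12.4 ± 4.09 FPKM in KO and 24.8 ± 9.29 FPKM in WT, and of Nr3c1, the glucocorticoid receptor gene, at 15.3 ± 0.851 FPKM in KO and 18.2 ± 1.01 FPKM in WT. Ddit4, an inhibitor of mTORC1 that is counted in this list and with the energy sensors, was at 35.8 ± 3.20 FPKM in KO and 27.5 ± 7.48 FPKM in WT.

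NLRP3 inflammasome genes, whose assembly TXNIP can promote, had 4 of 6 genes higher and 2 lower, with a median of 0.05. Casp1 was at 62.0 ± 7.59 FPKM in KO and 65.7 ± 5.48 FPKM in WT, and Il1b at 1.48 ± 0.730 FPKM in KO and 2.08 ± 1.08 FPKM in WT. Clock genes stood apart from the other lists in size, with 5 of 17 genes higher and 12 lower and a median of -0.64, and none was called (smallest limma adjusted p 0.591, for Usp2). The clock median was -1.09 without WT replicate 3. With the clock score in the fit it was -0.21, but that score was made from genes of this same list. A smaller median is then built in, and nothing is read from it.

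**Figure D4:**
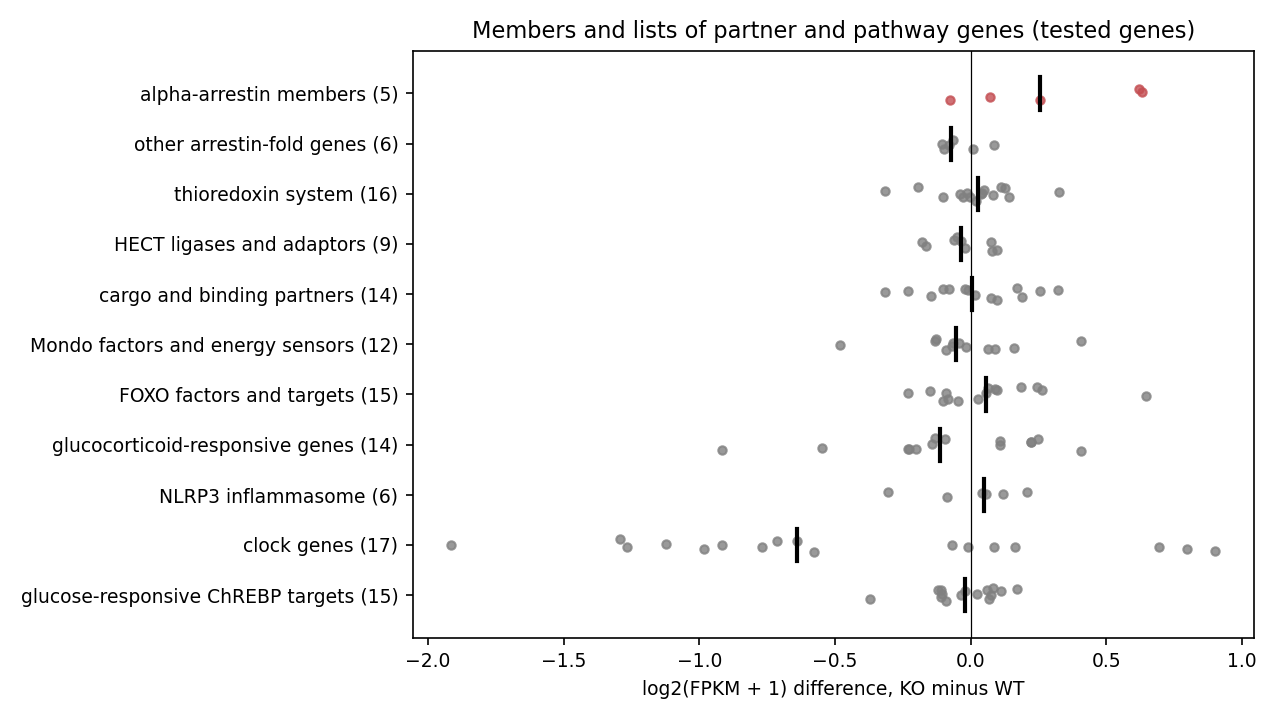
Difference in log2(FPKM + 1), KO minus WT, of the 5 alpha-arrestin genes (red, top row) and of the tested genes of 10 lists (grey), with the number of genes in brackets and a black bar at each median. The list medians lie between -0.11 and 0.06 except that of the clock genes (-0.64), whose lowest gene reaches -1.91, and Arrdc3 and Arrdc2 lie at 0.62 and 0.63.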

How the data were processed

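Poly-A RNA libraries of distal colon in 3 ChREBP knockout and 3 wild-type samples were grouped by the genotype label. The labels do not say that each sample is a separate mouse, so p-values measure only the spread between these samples, which may be technical. The authors deposited gene-level FPKM values, 1 column per library; per the submitters' processing notes, HISAT2, RSEM and the mm39 build were used, while versions, strand and filters were not stated. Depth was estimated from 383 short genes by fitting whole reads with a shared length offset of 36 bases; between 65.6% and 81.2% of the values per library came within 0.05 of a whole number. The 13247 genes that reached 1 FPKM in 3 libraries or more were fitted as log2(FPKM + 1) with limma 3.58.1 in R 4.3.3 (mean-variance trend, genotype as the sole term, two-sided, Benjamini-Hochberg threshold 0.05), and SEs and intervals are limma's; this scale understates the change of low genes. The fitting was tested on simulated data.

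The members, the 10 lists (135 of 136 entries matched) and the marker lists (68 of 69) were chosen with earlier results of these data known. Genes named from a list had the smallest unadjusted p or a role beside a member, the latter chosen after their values were seen, and some list genes are not reported here; those named beside a member had its highest r, leaving out predicted genes, immune receptor genes and microRNA genes. Of 19844 identifiers 19794 matched the RefSeq table of GRCm38.p6, and 27 symbols turned into dates were restored. Alternatives were another pseudocount (0.1), no filter, 2 rescalings, no trend, a replicate block, a clock score and each library left out.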

Additional observations from a re-analysis of the deposited data

How the results depend on the processing

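The number of genes called over the whole table was 2, and it was 0 with the replicate block, 0 with the clock score in the fit and 0 (lowest and highest) when any library was left out, with 314 to 871 genes at an unadjusted limma p under 0.05 in those fits. Whether same-numbered KO and WT libraries form pairs is not settled by these data. The correlations of their deviations from the genotype means were 0.27, -0.10 and 0.06, and 3 libraries per group are too few to decide it. Under the replicate block the differences of the members were the same by construction. The SE was then 0.13 for Txnip (0.22 without the block), 0.10 for Arrdc4 (0.19 without) and 0.17 for Arrdc3 (0.16 without). Over 13 alternatives each, the differences of Txnip (-0.29 to 0.09) and Arrdc4 (-0.13 to 0.21) changed sign. For Arrdc2 and Arrdc3 groups that do not overlap fix the sign whichever library is left out. Every difference of the 5 members stayed within 1 within-genotype SD of its value. For most alternatives this was fixed in advance. With 3 libraries per group, leaving 1 out cannot move a difference that far. The block, the fit without trend and the fit without filter leave the difference itself unchanged. Only the other pseudocount, the rescalings and the clock score could have passed this limit. The alternatives were followed for 49 list genes: the 5 with the smallest unadjusted p of each list, with Mlxipl, Mlx and Mlxip. Genes picked by a small p tend to keep their sign, and the other list genes were not followed singly. None of the 49 changed its side of the threshold, from which all lay far in the main fit. Among them 5 (Arrb1, Il18, Scd1, Thrsp and Wwp2) changed sign under some alternative, as did the medians of 8 of the 10 lists. With 3 samples per group and depth known only as an estimate, differences as small as those of Txnip and Arrdc4 were not resolved.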
